A study of Mus musculus with 12 samples.

Results

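OT-I CD8+ T cells that had received antigen together with agonist costimulation (Ag+Costim) were compared with Naive OT-I CD8+ T cells across all annotated genes. The libraries and genes were chosen by their group labels alone: the 5 Ag+Costim and the 2 Naive libraries, 7 of the 12 libraries of the series, and the 55536 of 81881 entries of the gene table that carry an Ensembl identifier. OT-I cells carry a transgenic T cell receptor for the ovalbumin peptide SIINFEKL. For Ag+Costim, OT-I cells positive for CD8, Vα2, Vβ5 and the congenic mark CD45.1 were transferred into wild-type C57BL/6J mice, which were given 100 µg of SIINFEKL intraperitoneally together with agonist antibodies to CD134 (clone OX-86) and CD137 (clone 3H3). The remaining 5 libraries (Ag) came from mice given the same cells and peptide with 100 µg of rat IgG in place of the agonists. The transferred cells were recovered from lymph nodes and spleen, to over 95% purity by sorting, after 3 days and 12 hours by the study's methods, whereas the labels give 4 days. Naive cells were CD8+ cells of OT-I mice that had received neither transfer nor treatment. The host and the transfer therefore differed together with the stimulus, and the sort may have differed too. By the methods, OT-I mice, the donors of transferred cells included, were deficient in Rag1 or Rag2. Mice of both sexes were used, aged 1.5 to 8 months by the methods and 6 to 12 weeks by the reporting summary.

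A resting naive CD8+ T cell recirculates between blood and lymphoid organs under the control of Foxo1, Klf2 and Tcf7, which maintain the lymph node homing receptor Ccr7 and the interleukin-7 receptor. Peptide recognition through the T cell receptor drives such cells into growth, DNA replication and division, and the cells acquire transcription factors, cytotoxic granule proteins and surface receptors of effector cells. CD134 (OX40, Tnfrsf4) and CD137 (4-1BB, Tnfrsf9) are receptors of the tumour necrosis factor family that signal through TRAF adaptors and NF-κB and prolong the expansion and survival of antigen-activated T cells.

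The libraries were made from polyadenylated RNA with a full-length method that does not mark strand, so that reads of overlapping genes cannot be told apart, and each held 40028682 to 49294934 estimated counts in Ag+Costim and 43491402 and 42342577 in Naive. Levels are given as CPM, the counts scaled to a common library size by TMM, a log2 fold change is Ag+Costim minus Naive, and a gene was called when edgeR's quasi-likelihood test gave it a Benjamini-Hochberg adjusted p below 0.05. Since 3 counts equal 0.0617 to 0.0779 CPM, lower levels were not detectable at this depth. Rank correlation between libraries was 0.971 to 0.983 within Ag+Costim and 0.984 between the Naive libraries. In a principal component analysis of the 7 libraries, component 1 (67.8% of the variance) separated the groups and component 2 (9.88%) spread the Ag+Costim libraries, with Ag+Costim 1 at 55 and Ag+Costim 4 at -74.1. Y-linked transcripts summed to 146 and 152 CPM in Ag+Costim 1 and 2 and to 276 CPM in Naive 1, but to 0.104 to 2.23 CPM in Ag+Costim 3 to 5 and Naive 2, so both groups held libraries with and without them. In Ag they summed to 201 and 203 CPM in Ag 1 and 2 and to 1.01 to 3.68 CPM in Ag 3 to 5, so that same-numbered treated libraries matched in this respect. Naive 2 differed from both treated libraries of its number. The labels do not say whether the libraries of a group came from separate mice, and p-values measure the spread between these libraries only.

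The T cell label held in every library: Cd8a was at 537, 563, 609, 585 and 504 CPM in Ag+Costim 1 to 5 and at 861 and 776 CPM in Naive 1 and 2, and Cd3e at 665, 606, 691, 878 and 702 CPM in Ag+Costim 1 to 5 and at 1044 and 1001 CPM in Naive 1 and 2. All 11 OT-I markers (CD3 chains, CD8 chains, receptor constant and transgenic variable segments) were nevertheless called lower in Ag+Costim, with a median log2 fold change of -0.63. Their summed level was 9156, 8153, 8844, 10649 and 8358 CPM in Ag+Costim 1 to 5 against 17107 and 16122 CPM in Naive 1 and 2, and all Ag+Costim sums lay below both Naive sums. In bulk samples, fewer cells of a type and less RNA per cell of its genes cannot be told apart.

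Of 18817 annotated genes with enough counts to be tested, Ag+Costim exceeded Naive in 5066 (26.9%) and lay below it in 4778 (25.4%) by this call, together 52.3%, and 8973 were not called. The median log2 fold change over all tested genes was -0.02, with quartiles of -0.96 and 0.84. Beyond a 2-fold change, tested as such, 1866 genes (9.92%) were higher and 1604 (8.52%) lower. The balance of directions depended on the processing: 51.5% of the calls were higher with TMM, 43.9% with upper-quartile scaling, which moved the median of all genes to -0.18, and 37.3% on deposited FPKM values with 1 added, tested with limma, where 3983 genes were higher and 6709 lower. Without Naive 2 the genes lower by more than 2-fold numbered 983. Among the gene lists below, counts of 0 to 2 members called against Naive moved by at most 1 when a single library was left out, except where stated. A share of calls within 5 percentage points of that of all tested genes is no result about the members. For higher calls this held for the killer lectin-like receptor, MYC network, interferon-stimulated and Gimap lists. For lower calls it held for the costimulatory receptor, BCL-2 family, B cell marker and cytosolic ribosomal protein lists. Both directions differed by gene type. Protein-coding genes were called higher in 31.3% and lower in 24.9% of 13121, whereas long intergenic RNAs were called higher in 8.49% and lower in 36.0% of 730, antisense RNAs in 4.52% and 37.3% of 774, and processed pseudogenes, which share sequence with their parent genes, in 33.3% and 8.99% of 2047.

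**Figure D1:**
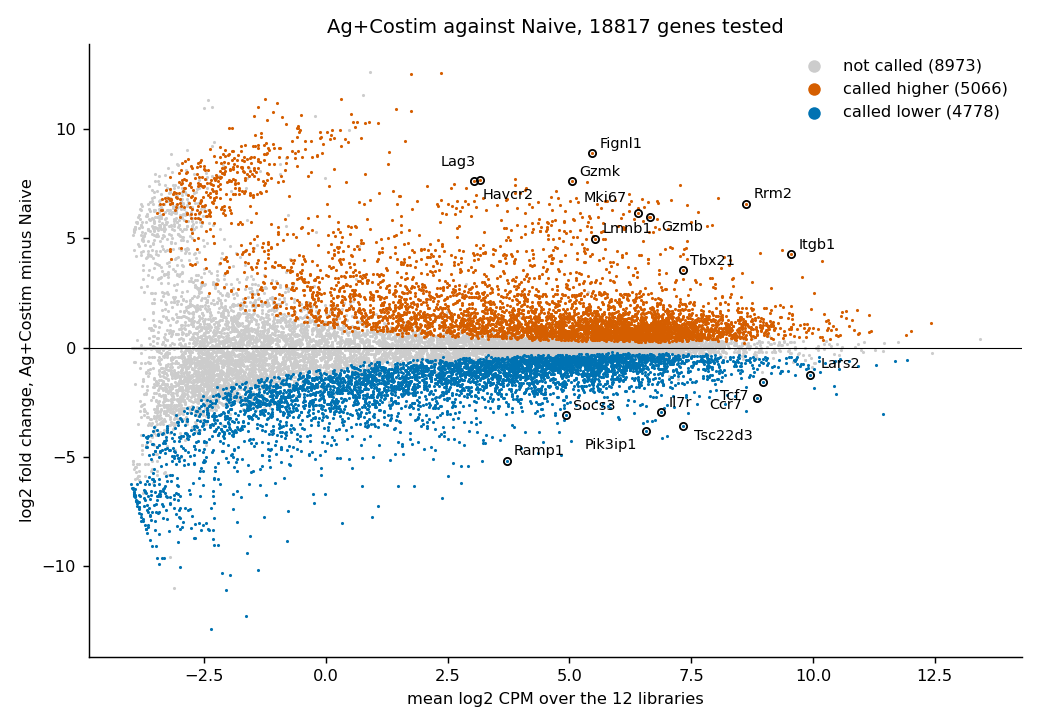
Log2 fold change of Ag+Costim against Naive (vertical axis) by mean log2 CPM over all libraries (horizontal axis) for the 18817 genes tested, with called genes coloured by direction. The 5066 higher and 4778 lower genes spread over the whole range of levels, and the circled genes include Fignl1 at 8.90 and Ramp1 at -5.18.

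Mitosis genes had the highest median of the 52 gene lists examined. All 40 members (kinetochore, spindle and chromosome segregation genes) were called higher, each beyond 2-fold, with a median log2 fold change of 5.53 against -0.02 over all genes tested. Mki67, the proliferation marker that coats mitotic chromosomes (chr7:135689784-135716361, minus strand), was at 311, 307, 299, 268 and 324 CPM in Ag+Costim 1 to 5 and at 4.38 and 3.95 CPM in Naive 1 and 2 (log2 fold change 6.18 ± 0.42, SE, adjusted p = 9.11e-08). The Ag+Costim libraries lay within a narrow range and far above both Naive libraries. Ttk, a spindle checkpoint kinase (chr9:83834689-83872389), was at 69.9 ± 7.72 CPM (SD, n = 5) against 0.466 CPM in Naive (log2 fold change 7.22), and Bub1b, a second checkpoint kinase, at 349 ± 42.1 CPM against 2.65 CPM (7.04). Nek2, a centrosome kinase, was at 202 ± 31.4 CPM against 1.07 CPM (7.56).

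DNA replication genes rose almost as uniformly. Of 51 members 48 were called higher and none lower, with a median log2 fold change of 2.57. Mcm5, a subunit of the replicative helicase, was at 994, 1046, 1041, 727 and 1008 CPM in Ag+Costim 1 to 5 and at 57.9 and 61.2 CPM in Naive 1 and 2 (log2 fold change 4.01 ± 0.29, SE, adjusted p = 1.33e-07), and Ag+Costim 4 was the lowest of its group. Rrm2, which supplies deoxynucleotides as the small subunit of ribonucleotide reductase, was at 1569 ± 222 CPM against 16.4 CPM (log2 fold change 6.58). Cdc6, a licensing factor of replication origins, rose by 6.37 and Mcm10, an initiation factor, by 6.83 on the log2 scale. The largest rise among the protein-coding genes that met the level and overlap criteria was that of Fignl1 (chr11:11787431-11808962, minus strand), an AAA ATPase linked to recombination repair, at 245 ± 46.1 CPM against 0.507 CPM (log2 fold change 8.90 ± 0.43, SE, adjusted p = 7.45e-09). Pif1, a DNA helicase, rose by 7.31 in the same ranking.

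Of 36 cyclins, cyclin-dependent kinases, inhibitors and E2F factors, 27 were called higher and 2 lower. E2f8, an atypical E2F repressor of the cell cycle, rose by 7.46, Ccna2, the cyclin of S phase and G2, by 6.73, and the phosphatase Cdc25c by 7.06 on the log2 scale. Replication-dependent histones, whose transcripts mostly lack a poly(A) tail, were called higher in 51 and lower in 1 of 62 members, and the linker histone Hist1h1b was at 79.3 ± 8.14 CPM against 1.11 CPM (6.15). Histone genes are near-identical copies, so that their individual estimates are uncertain. 

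Promoter sequences of these lists are shown because cell cycle genes are known to be driven through 2 kinds of element, E2F sites in replication genes and the cell cycle homology region (CHR) in mitotic genes. RefSeq promoters (GRCm38.p6, 250 bases before to 50 after the start, 27025 genes) were matched for 35 of 40 mitosis genes, 43 of 51 replication genes and 29 of 30 quiescence genes and searched on both strands. The CHR letters TTTGAA stood in 74.3% of the mitosis promoters, 14.0% of the replication promoters and 3.45% of the quiescence promoters, against 18.1% of all promoters, 20% of those of cytotoxic granule genes and 21.4% of those of inhibitory receptors. Either E2F string, TTTCCCGC or TTTGGCGC, stood in 30.2% of the replication promoters, 5.71% of the mitosis promoters and none of the quiescence promoters, against 1.63% of all. A match is a description of letters and not evidence of a bound factor. The windows below are each 30 bases, 5′ to 3′ on the gene's strand, with the CHR letters or their complement in capitals for the first 4 and the E2F letters or their complement in capitals for the last 3.
Mki67, chr7:135716460-135716489, minus strand: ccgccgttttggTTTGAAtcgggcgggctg
Ttk, chr9:83834684-83834713, plus strand: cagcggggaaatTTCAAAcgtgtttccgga
Bub1b, chr2:118598231-118598260, plus strand: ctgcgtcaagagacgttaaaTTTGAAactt
E2f8, chr7:48881599-48881628, minus strand: gagcgggttaatTTCAAAtcgggggctgga
Mcm5, chr8:75109349-75109378, plus strand: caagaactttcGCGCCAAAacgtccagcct
Cdc6, chr11:98908002-98908031, plus strand: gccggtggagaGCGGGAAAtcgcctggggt
Ezh2, chr6:47595009-47595038, minus strand: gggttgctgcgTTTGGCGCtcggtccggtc
The letters TTTGAA also stood in the promoters of Il2ra, Gzma, Gzmk and Bcat1, which are not cell cycle genes. The 7 genes shown were taken from the named genes, which were fixed for naming or picked for large called changes. Their direction is therefore not a result about these letters. Whether the letters relate to the size of a change was not tested.

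**Figure D2:**
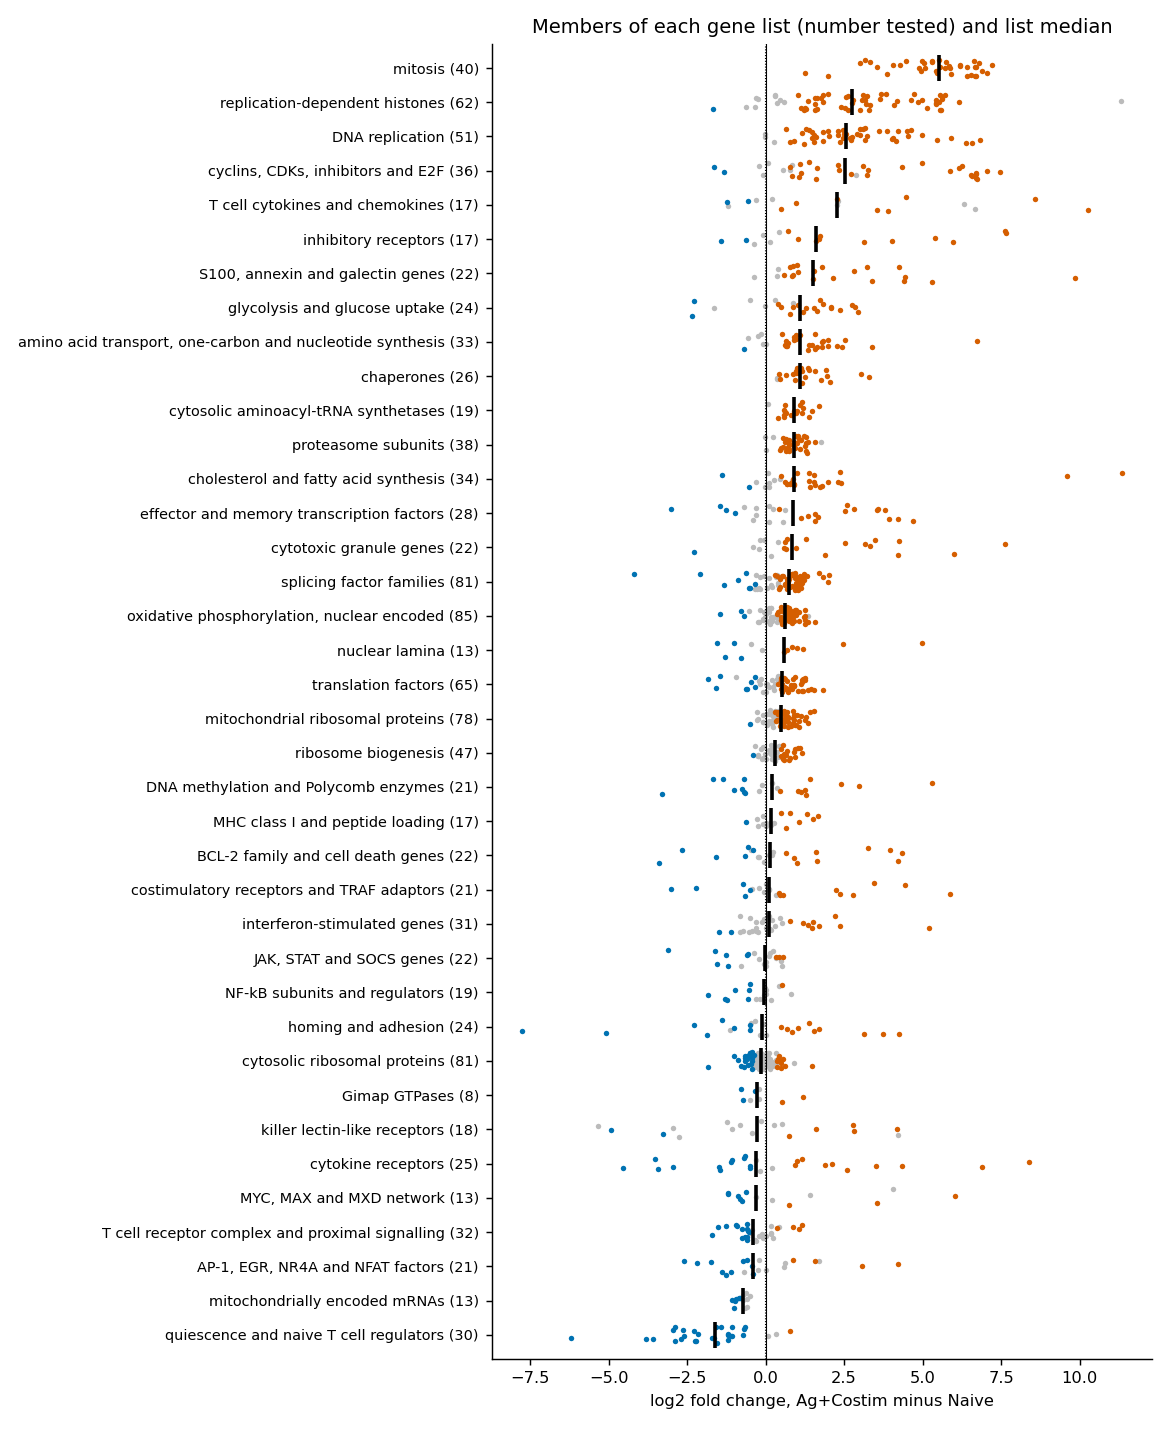
Log2 fold change of Ag+Costim against Naive (horizontal axis) for the tested members of the gene lists (rows), each point 1 gene, with the list median as a bar, called genes coloured by direction and the median of all tested genes as a dotted line at -0.02. Mitosis genes (median 5.53) lie wholly to the right and most quiescence genes (median -1.60) to the left.

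Regulators of quiescence and of the naive state moved the other way. Of 30 members 27 were called lower, 17 of them beyond 2-fold, with a median log2 fold change of -1.60, and only Rasgrp2, an exchange factor for Rap1, was called higher (0.78). Il7r, the receptor chain for the survival cytokine interleukin-7 (chr15:9505788-9530176, minus strand), was at 67.3, 60.2, 68.1, 104 and 64.8 CPM in Ag+Costim 1 to 5 and at 525 and 609.7 CPM in Naive 1 and 2 (log2 fold change -2.96 ± 0.18, SE, adjusted p = 3.40e-08). Tcf7, the transcription factor TCF-1 of naive and memory cells, was at 308, 255, 239.8, 435 and 264 CPM in Ag+Costim 1 to 5 and at 908 and 869 CPM in Naive 1 and 2 (log2 fold change -1.57 ± 0.23, SE, adjusted p = 7.09e-05). Tsc22d3 (GILZ), a FOXO target that restrains activation, was at 33.0, 26.6, 42.8, 170.0 and 68.0 CPM in Ag+Costim 1 to 5 and at 712 and 921 CPM in Naive 1 and 2 (log2 fold change -3.58 ± 0.58, SE, adjusted p = 3.07e-04). Ag+Costim 4 was the highest of its group for all 3 genes and still below both Naive libraries. Log2 fold changes were -2.59 for Lef1, which acts beside TCF-1, -3.82 for the PI3K inhibitor Pik3ip1, -1.08 for Klf2 and -1.55 for Foxo1, and -2.90 and -2.70 for the repressor Bach2 and the chromatin organiser Satb1, which shares its span with 6 other annotated genes.

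Homing and adhesion genes moved in both directions. Of 24 members 10 were called higher and 8 lower. Ccr7, which guides cells to the T cell zone of lymph nodes, was at 226, 186, 178, 342 and 225 CPM in Ag+Costim 1 to 5 and at 1083 and 1191 CPM in Naive 1 and 2 (log2 fold change -2.30 ± 0.23, SE, adjusted p = 2.81e-06). All its Ag+Costim values lay below both Naive values. Itgae, the CD103 integrin chain, and Ccr9, the gut homing receptor, fell furthest, with log2 fold changes of -5.08 and -7.77. Itgb1, the beta chain of the VLA integrins (chr8:128685654-128733200), was at 1814, 1632, 1615, 2000.4 and 1698 CPM in Ag+Costim 1 to 5 and at 95.6 and 87.0 CPM in Naive 1 and 2 (log2 fold change 4.26 ± 0.26, SE, adjusted p = 3.13e-08) and was the largest rise of the list. The inflammatory chemokine receptor Cxcr3 rose by 3.12 on the log2 scale, and the hyaluronan receptor Cd44, a standard activation marker, was at 38.5, 41.5, 38.3, 47.5 and 41.7 CPM in Ag+Costim 1 to 5 and at 13.8 and 14.5 CPM in Naive 1 and 2 (log2 fold change 1.55 ± 0.13, SE, adjusted p = 6.07e-07).

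The 10 largest falls among the protein-coding genes that met the same criteria all lay outside the gene lists. The level criterion is a mean over all 12 libraries, most of them treated, so it can leave out genes that fell to low levels. The list members Ccr9 and Itgae did not meet the criteria, and Ccr9 (-7.77) fell further than any of the 10. Ramp1, the co-receptor for calcitonin gene-related peptide (chr1:91179822-91225196), was at 5.36, 1.95, 1.11, 2.07 and 1.01 CPM in Ag+Costim 1 to 5 and at 87.8 and 78.9 CPM in Naive 1 and 2 (log2 fold change -5.18 ± 0.49, SE, adjusted p = 1.89e-06). Vipr1, a receptor for vasoactive intestinal peptide, was at 3.40 ± 2.02 CPM against 58.0 CPM (log2 fold change -4.09), and St6gal1, a sialyltransferase, at 9.10 ± 5.12 CPM against 178 CPM (-4.29). Tdrp, Rflnb, the kinase Matk, the CXXC zinc finger gene Cxxc5, the Rap exchange factor Rapgef4, Mturn and Tmem87a completed the 10 largest falls, with log2 fold changes from -5.17 (Cxxc5) to -3.99 (Tmem87a).

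Most called effector genes were higher. Of 28 effector and memory transcription factors 15 were called higher and 4 lower (median 0.89). Tbx21 (T-bet, chr11:97098071-97115331, minus strand), the master factor of type 1 effector cells, was at 303, 410.5, 484, 505 and 511 CPM in Ag+Costim 1 to 5 and at 44.1 and 32.3 CPM in Naive 1 and 2 (log2 fold change 3.53 ± 0.30, SE, adjusted p = 5.71e-07). Irf4, which scales with antigen receptor signal strength, rose by 4.69, Irf8 by 3.92, Prdm1 (Blimp-1), a terminal effector factor, by 3.79, Bhlhe40 by 3.59, Eomes by 2.58 and Id2 by 1.68 on the log2 scale. Zbtb32, a zinc finger repressor outside the list, was among the 10 largest rises, at 296 ± 18.8 CPM against 1.69 CPM (7.45).

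Of 22 tested cytotoxic granule genes 15 were called higher and 1, the lysosomal protease Ctsl (-2.27), lower. Gzmb, the caspase-activating granzyme (chr14:56258838-56262260, minus strand), was at 133, 416, 546, 475 and 807 CPM in Ag+Costim 1 to 5 and at 7.66 and 7.35 CPM in Naive 1 and 2 (log2 fold change 5.99 ± 0.80, SE, adjusted p = 5.84e-05), and all 5 values lay above Naive although Ag+Costim 1 was the lowest by a wide margin. Gzmk (chr13:113171608-113225908, minus strand), a tryptase of memory-like effector cells, was at 128, 173, 218, 204 and 224 CPM in Ag+Costim 1 to 5 and at 0.988 and 0.945 CPM in Naive 1 and 2 (log2 fold change 7.61 ± 0.68, SE, adjusted p = 1.02e-06). Gzma was at 67.9, 119, 213, 334 and 261 CPM in Ag+Costim 1 to 5 and at 34.1 and 35.2 CPM in Naive 1 and 2 (log2 fold change 2.52 ± 0.77, SE, adjusted p = 0.0172), a call that was lost without Naive 1 (log2 fold change 2.49) or Naive 2 (2.53). Prf1, the pore-forming perforin, was at 89.9 ± 23.6 CPM against 80.2 CPM and was not called (log2 fold change 0.17 ± 0.23, SE, adjusted p = 0.562), and its sign turned negative on FPKM values (-0.09) and with a replicate term (-0.09). Without Naive 2 the higher granule genes numbered 10. Serpinb9, which protects the killer cell from granzyme B, and the death ligand Fasl rose by 4.26 and 3.15.

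Among 17 tested cytokines and chemokines 8 were called higher and 2 lower. Ifng, the type 1 cytokine interferon gamma, was at 7.28, 10.5, 10.3, 8.59 and 8.49 CPM in Ag+Costim 1 to 5 and at 0.576 and 0.966 CPM in Naive 1 and 2 (log2 fold change 3.55 ± 0.30, SE, adjusted p = 5.37e-07), so the transcript rose at a low level. Xcl1, which attracts cross-presenting dendritic cells, rose by 3.89 and Ccl4 by 2.28 on the log2 scale. Ccl5 was at 16.4, 15.1, 28.7, 137 and 72.1 CPM in Ag+Costim 1 to 5 and at 134 and 114 CPM in Naive 1 and 2 and was not called (log2 fold change -1.20 ± 0.75, SE, adjusted p = 0.202), since Ag+Costim 4 lay above both Naive libraries and Ag+Costim 1 to 3 far below them. Without Ag+Costim 4, Ccl5 was called lower (log2 fold change -1.89). Il2, listed at 0 in both Naive libraries, was at 3.61 ± 0.445 CPM in Ag+Costim.

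**Figure D3:**
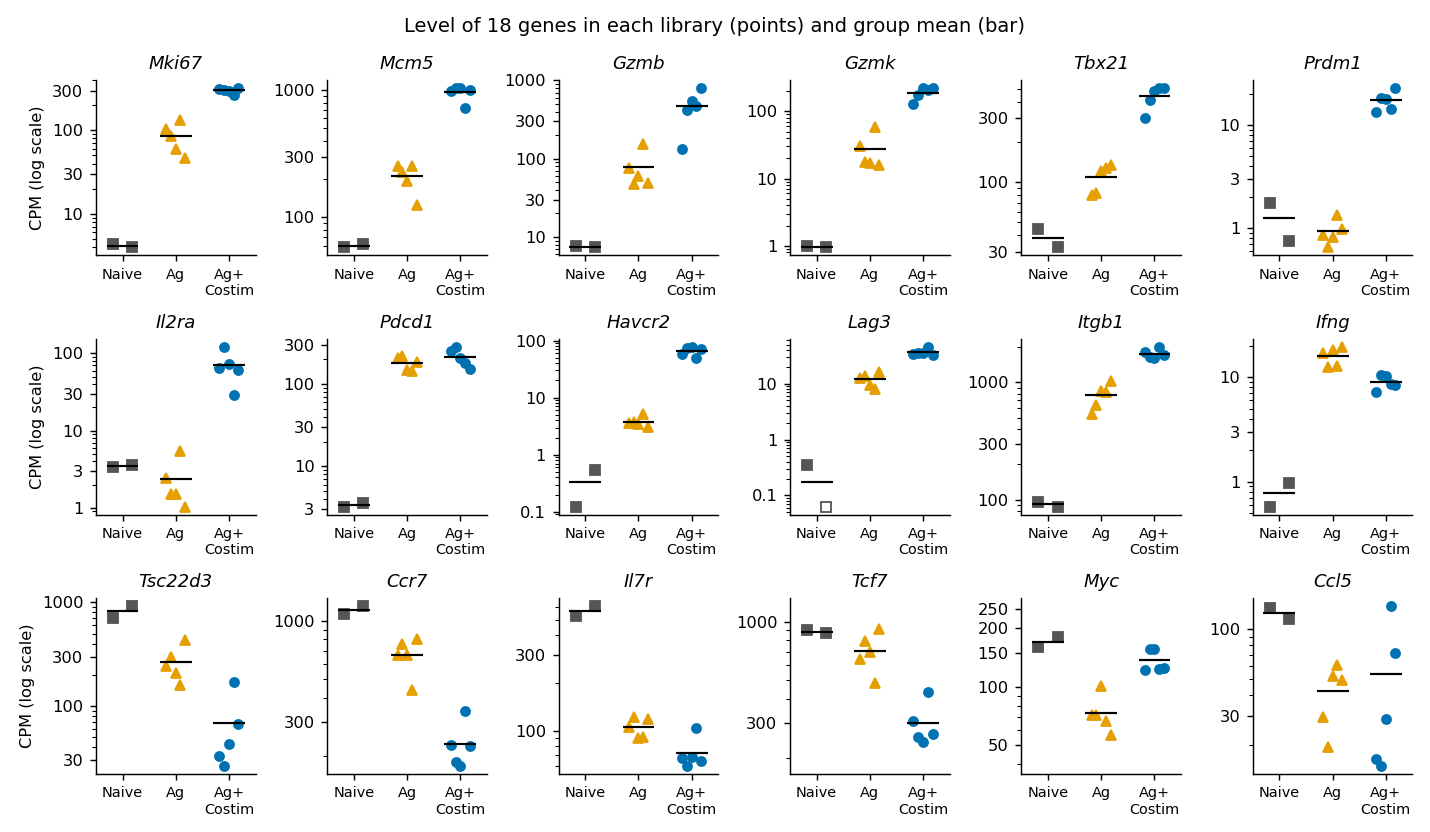
CPM on a log axis (vertical) of 18 genes, 1 panel each, in every Naive, Ag and Ag+Costim library (points) with the group mean (bar). The open marker is Lag3 in Naive 2, listed at 0 and drawn at the floor of 3 counts. Mki67, Gzmb and Havcr2 lie higher in all 5 Ag+Costim libraries than in Naive, Ccr7 and Il7r lower, and Ccl5 overlaps.

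Inhibitory receptors, which restrain effector cells and mark chronic stimulation when kept, were called higher in 11 and lower in 2 of 17 members (median 1.60). Havcr2 (TIM-3, chr11:46454935-46481255) was at 59.2, 75.1, 77.5, 48.5 and 72.4 CPM in Ag+Costim 1 to 5 and at 0.123 and 0.546 CPM in Naive 1 and 2 (log2 fold change 7.63 ± 0.46, SE, adjusted p = 3.15e-08). Pdcd1 (PD-1) was at 255, 284, 206, 180.0 and 152 CPM in Ag+Costim 1 to 5 and at 3.25 and 3.63 CPM in Naive 1 and 2 (log2 fold change 5.97 ± 0.32, SE, adjusted p = 1.57e-08), and Lag3 at 33.7, 35.7, 34.9, 45.6 and 32.2 CPM in Ag+Costim 1 to 5 and at 0.350 and 0 CPM in Naive 1 and 2 (log2 fold change 7.67 ± 0.64, SE, adjusted p = 5.63e-07). No Ag+Costim value of these 3 genes came near a Naive value, and with Naive 2 at 0 the fold change of Lag3 rests on Naive 1, without which it was 13.58. Ctla4 rose by 5.39 on the log2 scale. Of 18 killer lectin-like receptors 5 were called higher (27.8%, near the 26.9% of all genes) and 2 lower, with Klrc1, Klrk1 and Klrg1 higher by 4.18, 2.82 and 1.60. Klrg1 lost its call without Naive 1 (1.37), where 3 of these receptors were higher, and 4 were lower without Ag+Costim 4.

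Costimulatory receptors and TRAF adaptors had 9 members higher and 5 lower of 21 (median 0.12, with -0.04 under upper-quartile scaling and -0.11 on FPKM values). The targets of the agonists differed in level. Tnfrsf9 was at 126, 176, 153, 59.9 and 83.2 CPM in Ag+Costim 1 to 5 and at 6.05 and 5.0 CPM in Naive 1 and 2 (log2 fold change 4.44 ± 0.42, SE, adjusted p = 1.94e-06), whereas Tnfrsf4 was at 12.1, 20.7, 10.7, 1.47 and 3.04 CPM in Ag+Costim 1 to 5 and at 1.23 and 1.57 CPM in Naive 1 and 2 (log2 fold change 2.77 ± 0.85, SE, adjusted p = 0.0148), and Ag+Costim 4 lay between the Naive values for Tnfrsf4, whose call was lost without Naive 1 (2.60) or Naive 2 (2.95). Tnfsf9, the ligand of CD137, rose by 3.46, and the death domain receptor Tnfrsf25 had a log2 fold change of -3.02. Cytokine receptors were called higher in 10 and lower in 12 of 25. Il2ra, the high-affinity chain of the interleukin-2 receptor, was at 64.2, 122, 73.5, 29.3 and 60.5 CPM in Ag+Costim 1 to 5 and at 3.40 and 3.55 CPM in Naive 1 and 2 (log2 fold change 4.33 ± 0.68, SE, adjusted p = 1.51e-04), Il12rb2 rose by 3.53 and Il2rb by 1.9, and Il6ra was among the falls (-3.44).

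In 4 lists of signalling genes more members were called lower than higher, with 25.4% of all tested genes lower. T cell receptor complex and proximal signalling genes were called higher in 4 and lower in 14 of 32 (43.8% lower), NF-κB subunits and regulators in 1 and 7 of 19 (36.8%), AP-1, EGR, NR4A and NFAT factors in 4 and 10 of 21 (47.6%), and JAK, STAT and SOCS genes in 3 and 7 of 22 (31.8%). Without Ag+Costim 4 or Ag+Costim 5 the lower NF-κB genes numbered 5, near the share of all genes. Their number was likewise smaller without Naive 2. The lower JAK, STAT and SOCS genes numbered 5 without Naive 1 and 5 without Naive 2, near the share of all genes. Nfkb2, the precursor of p52 in the alternative NF-κB pathway, was at 131, 207, 157, 82.9 and 58.2 CPM in Ag+Costim 1 to 5 and at 65.1 and 81.7 CPM in Naive 1 and 2 and was not called (log2 fold change 0.79 ± 0.36, SE, adjusted p = 0.0800), although it was without Ag+Costim 4 (log2 fold change 0.93) or Ag+Costim 5 (0.98). Nfkbia, the IκBα inhibitor, and Map3k14, the NIK kinase, had log2 fold changes of -1.24 and -1.82, the immediate-early genes Egr1 and Nr4a1 of -1.74 and -1.25, and the cytokine signalling inhibitor Socs3 of -3.10. The JAK, STAT and SOCS genes called higher numbered 0 without Naive 2, 1 without Naive 1 or Ag+Costim 3 and 5 without Ag+Costim 1. Batf, the AP-1 partner of IRF4, rose by 1.58. In the MYC, MAX and MXD network, 3 of 13 were higher and 6 lower. Myc itself was at 122, 157, 156, 124 and 125 CPM in Ag+Costim 1 to 5 and at 160.2 and 181 CPM in Naive 1 and 2 and was not called (log2 fold change -0.32 ± 0.18, SE, adjusted p = 0.156), while the repressive partner Mxd3 rose by 6.03 and Mxd4 had a value of -1.19.

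Metabolic genes were mostly called higher. Glycolysis and glucose uptake genes were called higher in 17 and lower in 2 of 24, the exceptions being Ldhb (-2.36) and Pdk1 (-2.28). Gapdh rose by 2.35, Tpi1 by 2.75 and Slc16a3, a lactate exporter, by 2.93, whereas the glucose transporter Slc2a1 rose by 0.40 (adjusted p = 0.0160), a call lost without Naive 1 (0.34) or Naive 2 (0.44) and with upper-quartile scaling. Cholesterol and fatty acid synthesis genes were higher in 24 and lower in 2 of 34, with Idi1, Sqle and Cyp51 at 2.40, 2.37 and 2.32. Amino acid transport, folate and nucleotide synthesis genes were higher in 27 and lower in 1 of 33, with Psat1 of serine synthesis at 3.37, Shmt1 at 2.54 and Odc1 of polyamine synthesis at 2.45. Bcat1, a branched-chain amino acid transaminase, was among the 10 largest rises at 71.5 ± 27.7 CPM against 0.332 CPM (7.74). Nuclear-encoded oxidative phosphorylation genes were higher in 58 and lower in 3 of 85, and mitochondrial ribosomal proteins in 51 and 1 of 78, while the 13 mitochondrially encoded mRNAs had 6 lower and none higher. Fewer oxidative phosphorylation genes were called higher without Naive 2. Without Naive 2 the higher mitochondrial ribosomal proteins numbered 32 and the lower mitochondrially encoded mRNAs 0, and the latter numbered 2 without Naive 1 or Ag+Costim 2 and 3 without Ag+Costim 3.

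Genes of protein synthesis and turnover were higher in most lists. Chaperones were called higher in 24 of 26 and cytosolic aminoacyl-tRNA synthetases in 18 of 19, with none lower, and Hsp90aa1, Hspd1 and Vars rose by 2.06, 1.97 and 1.39. Proteasome subunits were higher in 34 of 38 (median 0.89) and translation factors higher in 39 and lower in 8 of 65 (5 lower without Naive 1). Ribosome biogenesis genes had 17 higher and 1 lower of 47, none beyond 2-fold, and 11 were higher without Naive 2. Cytosolic ribosomal proteins did not follow the other lists, at 10 higher and 22 lower of 81 (12.3% and 27.2%). The lower share was near the 25.4% of all tested genes. Both counts were smaller when either Naive library was left out. Rps27 had a log2 fold change of -1.83, and many of these genes have processed pseudogenes that can take up reads. Splicing factor families were higher in 58 and lower in 8 of 81, with Hnrnpa1 and Hnrnpll at 2.01 and 2.0. Of 19 listed RNA-binding proteins, 17 were called higher than in Naive and none lower (median 0.93). Tardbp was not called against Naive (log2 fold change 0.33 ± 0.16, SE, adjusted p = 0.0938). Without Ag+Costim 4 all 19 were called higher than in Naive, Tardbp with a log2 fold change of 0.41. Against Ag all 19 were called higher (median difference 1.15), also when any single treated library was left out. The log2 difference of Tardbp from Ag was 0.82 (adjusted p = 4.67e-05). The study had chosen these proteins as higher in Ag+Costim than in Ag, in RNA and protein, in repeated experiments that included these samples. These counts are therefore not independent evidence of the direction of these proteins.

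Chromatin and nuclear envelope genes moved in both directions. Among DNA methylation and Polycomb enzymes 9 were called higher and 8 lower of 21, and the median of 0.20 turned to -0.29 on FPKM values. Uhrf1 and Dnmt1, which copy methylation at replication forks, rose by 5.29 and 2.39. Ezh2, the Polycomb methyltransferase of dividing cells, was at 232, 233, 228, 196 and 239 CPM in Ag+Costim 1 to 5 and at 28.5 and 29.5 CPM in Naive 1 and 2 (log2 fold change 2.96 ± 0.12, SE, adjusted p = 4.01e-09), while its paralogue Ezh1 of resting cells had a log2 fold change of -1.01. The demethylating dioxygenases Tet1 and Tet3 had values of -3.30 and -1.67. Of 13 nuclear lamina genes 7 were higher and 4 lower, and without Naive 2, 5 and 1. Lmnb1, the B-type lamin, was at 367, 392, 401, 224 and 353 CPM in Ag+Costim 1 to 5 and at 10.2 and 11.9 CPM in Naive 1 and 2 (log2 fold change 4.97 ± 0.37, SE, adjusted p = 1.83e-07), and Lmna had a value of -1.55, a call lost without Naive 2 (-1.23).

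Lists of survival and interferon genes had shares of calls partly near those of all tested genes (26.9% higher and 25.4% lower). BCL-2 family and cell death genes had 9 higher and 6 lower of 22 (40.9% and 27.3%, the lower share near that of all genes; median 0.15, which turned to -0.01 on FPKM values), with the survival gene Bcl2 at -2.68 and its relatives Bcl2a1d and Bcl2l1 at 4.34 and 1.65. Interferon-stimulated genes had 9 higher and 2 lower of 31 (29.0% and 6.45%, the higher share near that of all genes; median 0.10, with -0.15 on FPKM values and -0.23 with a replicate term), with Oas1a and Mx1 at 2.38 and 2.20, and MHC class I and peptide loading genes 7 and 1 of 17 (median 0.18, with -0.04 on FPKM values). The interferon-stimulated counts were not stable, at 7 higher and 7 lower without Ag+Costim 3, 8 and 4 without Ag+Costim 4, 6 and 1 without Naive 1, and 6 and 0 without Naive 2. S100, annexin and galectin genes had 19 higher and none lower of 22, with Lgals3, Anxa2 and S100a4 at 5.31, 4.44 and 4.25. Gimap GTPases, which support lymphocyte survival, had 2 higher and 3 lower of 8 (25% and 37.5%, the higher share near that of all genes), with none lower without Naive 1, 1 without Naive 2 and 5 without Ag+Costim 4.

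The same changes were set beside those of antigen alone, with the contrast of Ag+Costim against Ag in the same fit as the test of the difference. It shares the 5 Ag+Costim libraries with the comparison to Naive, so overlaps between these comparisons are not given. The Ag libraries also differed from Ag+Costim in ribosomal RNA-like sequences and markers of other cells. Ag 4 had a lower depth, at 24006053 estimated counts. The other Ag libraries held 42652628 to 45980125, within the Ag+Costim range. Ribosomal RNA-like sequences summed to 390.0 to 1392 CPM in Ag against 4235 to 5491 CPM in Ag+Costim (4 of 5 higher, median difference 5.06). Erythroid markers summed to 639 to 6417 CPM in Ag against 23.2 to 241 CPM, with 6 of 10 lower in Ag+Costim, as were 5 of 5 platelet markers (3 without Ag 2) and 6 of 12 B cell markers. Their part in the difference from Ag was not tested beyond leaving genes and libraries out. Across all tested genes this contrast called 26.6% higher and 26.5% lower, 5006 and 4979 genes, and 5156 and 5034 without Ag 4. With erythroid, ribosomal RNA-like and mitochondrial genes left out of the fit it called 4994 and 4966. Among members, 39 of 40 mitosis genes, 46 of 51 replication genes and 42 of 47 ribosome biogenesis genes were higher than in Ag, and 25 of 30 quiescence genes lower, with 38, 46, 41 and 25 without Ag 4. Lmnb1 was at 11.6 ± 3.95 CPM in Ag, where it differed from Ag+Costim by 4.90 (adjusted p = 1.08e-08), and Ccr7 was at 666 ± 141 CPM (difference -1.53, adjusted p = 1.48e-05). The amino acid transporter Slc7a5 differed by 3.89 between the treated groups, more than the 2.0 by which Ag+Costim exceeded Naive. Other lists held more members lower than in Ag. Nuclear-encoded oxidative phosphorylation genes had 52 lower and 8 higher of 85, and cytosolic ribosomal proteins 44 and 1 of 81 (3 higher without Ag 4). Mitochondrial ribosomal proteins had 26 and 11 of 78, and cytokines and chemokines 9 and 1 of 17. OT-I markers had 10 lower and none higher of 11, with sums of 16430 to 23717 CPM in Ag against 8153 to 10649 CPM in Ag+Costim. Gimap GTPases had 7 lower and none higher of 8. Ifng differed from Ag by -0.82 (adjusted p = 0.00127) and Xcl1 by -2.0 (adjusted p = 0.00199), and Ctla4 was likewise lower than in Ag (-1.75, adjusted p = 8.93e-06).

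The spread among the Ag+Costim libraries was described over called genes only, which favours genes of low spread. Over 5330 called protein-coding genes above 3 in mean log2 CPM the coefficient of variation within Ag+Costim had a median of 11.6% and quartiles of 7.74% and 17.2%. It reached 50% in 48 genes. Ag+Costim 4 was the highest library in 30 of these 48, and in 23 of the 31 that were called lower than in Naive. Among the list medians by library, Ag+Costim 4 lay nearest to Naive for mitosis, DNA replication, histone, ribosome biogenesis, T cell receptor signalling and quiescence genes, and furthest from Naive for inhibitory receptors (1.89), cytotoxic granule genes (0.95) and dendritic cell and MHC class II markers (2.60). Without Ag+Costim 4, 95.9% of the calls were kept.

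**Figure D4:**
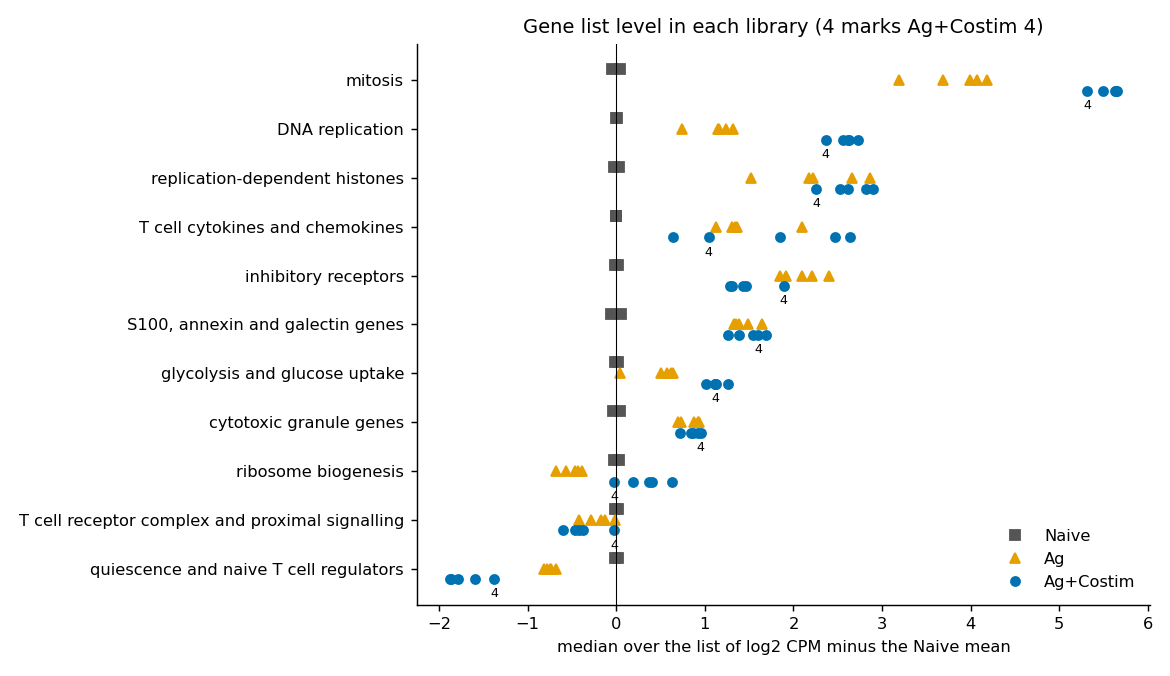
Median over the list of log2 CPM minus the Naive mean (horizontal axis) for 11 gene lists (rows) in each Naive, Ag and Ag+Costim library (points), with the digit 4 marking Ag+Costim 4. Mitosis genes lie furthest above Naive in every Ag+Costim library and quiescence genes furthest below.

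Transcript shares within 4 genes of known isoform use were read from the estimated transcript counts and are given as values, without a test. For Ptprc (CD45), the retained-intron transcript Ptprc-208 took 6.13% to 7.23% of the gene's counts in Ag+Costim and 13% and 15.6% in Naive, with no overlap. The more abundant retained-intron transcript Ptprc-201 overlapped, at 29.8% to 33.2% against 30.9% and 29.9%. The coding transcript Ptprc-203 took 33.0% to 43.6% against 27.6% and 29.6%, and Ptprc-207 took 9.33% to 21.9% against 19.3% and 15.7%. For Pkm, Pkm-201 took 95.2% to 98.3% against 96.7% and 94.1%, for Tcf7, Tcf7-201 took 92.8% to 97.2% against 97.5% in both, and for Cd44, Cd44-203 took 64.5% to 73.8% against 66.2% and 64.9%. Cd44-201 was listed at 0 in Ag+Costim 2, where Cd44-207 took 25.7%.

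Transcripts of other cell types were found in both groups. B cell markers were called higher in 7 and lower in 3 of 12, with summed levels of 636, 667, 805, 1537 and 1018 CPM in Ag+Costim 1 to 5 and of 1107 and 1102 CPM in Naive, on both sides of the Naive values. The most abundant was Ighm, without which the mean sum was 201 CPM in Ag+Costim and 79.9 CPM in Naive. Ms4a1 (CD20), a B cell surface protein, was at 3.18, 12.2, 10.3, 6.79 and 6.08 CPM in Ag+Costim 1 to 5 and at 0.144 and 0.0630 CPM in Naive 1 and 2. Igkc, the kappa light chain, was at 49.6, 59.3, 78.0, 333 and 170.4 CPM in Ag+Costim 1 to 5 and at 1.52 and 1.01 CPM in Naive 1 and 2 (log2 fold change 6.77 ± 1.42, SE, adjusted p = 0.00240). Immunoglobulin variable segments summed to 37.0, 33.2, 52.3, 313 and 148 CPM in Ag+Costim 1 to 5 and to 1.13 and 1.05 CPM in Naive. Of 218 segments, 12 and 9 were above 0 in Naive 1 and 2 and 69 to 156 in Ag+Costim. Most of the 122 tested therefore passed the count filter through treated libraries, so their share of higher calls is not given. Dendritic cell and MHC class II markers were higher in 8 of 10 (5 without Naive 1), summing to 268, 402, 456, 546 and 409 CPM against 88.3 and 46.7 CPM, with Itgax, which activated CD8+ T cells can also express, at 25.6, 38.7, 70.04, 141 and 106 CPM in Ag+Costim 1 to 5 and at 1.63 and 1.60 CPM in Naive 1 and 2. Myeloid markers (4 higher, 2 lower of 12) summed to 103, 102, 129, 172 and 141 CPM against 116 and 35.1 CPM, with 6 higher without Ag+Costim 2, 2 higher without Naive 2 and none lower without Naive 1. Their part in the results above was not tested.

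Lists of other cell types, receptor segments and RNA quality ranged from no call to most members called. Erythroid markers were lower in 4 of 10 and summed to 241, 61.6, 240, 72.2 and 23.2 CPM in Ag+Costim against 2082 and 153 CPM in Naive, with none lower without Naive 1, Ag+Costim 2 or Ag+Costim 4 and 1 lower without Ag+Costim 5, and within libraries lacking Y-linked transcripts their median was 0.48. Platelet markers had no call among 5, NK cell markers 1 lower of 7, CD4 and regulatory T cell markers 1 higher and 1 lower of 5, gamma delta markers 1 higher and 3 lower of 5, and Il17a was at 0 in all 7 libraries. T cell receptor alpha variable segments summed to 84.8 to 133 CPM against 1862 and 1676 CPM, led by Trav14n-1. Of 108 segments 19 were tested. These could pass the count filter through the Naive libraries alone, so their share of lower calls is not given. Beta variable segments, 2 higher and 1 lower of 13 and none higher without Ag+Costim 3, 4 or 5 or either Naive library, summed to 777 to 1099 CPM against 1456 and 1437 CPM, led by Trbv12-1. Sequences resembling ribosomal RNA, counted in genes such as Lars2 and Gm26917, were lower in 3 of 5 tested (1 without Naive 1 and none without Naive 2) and summed to 4235 to 5491 CPM against 11356 and 11789 CPM, and mitochondrially encoded mRNAs to 5037 to 7206 CPM against 8762 and 10546 CPM. The share of aligned reads was 73.58% to 75.61% in Ag+Costim and 76.5% and 75.74% in Naive, and library complexity 22.61% to 25.54% against 27.44% and 28.4%. The part of these values in the results above was not tested.

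**Figure D5:**
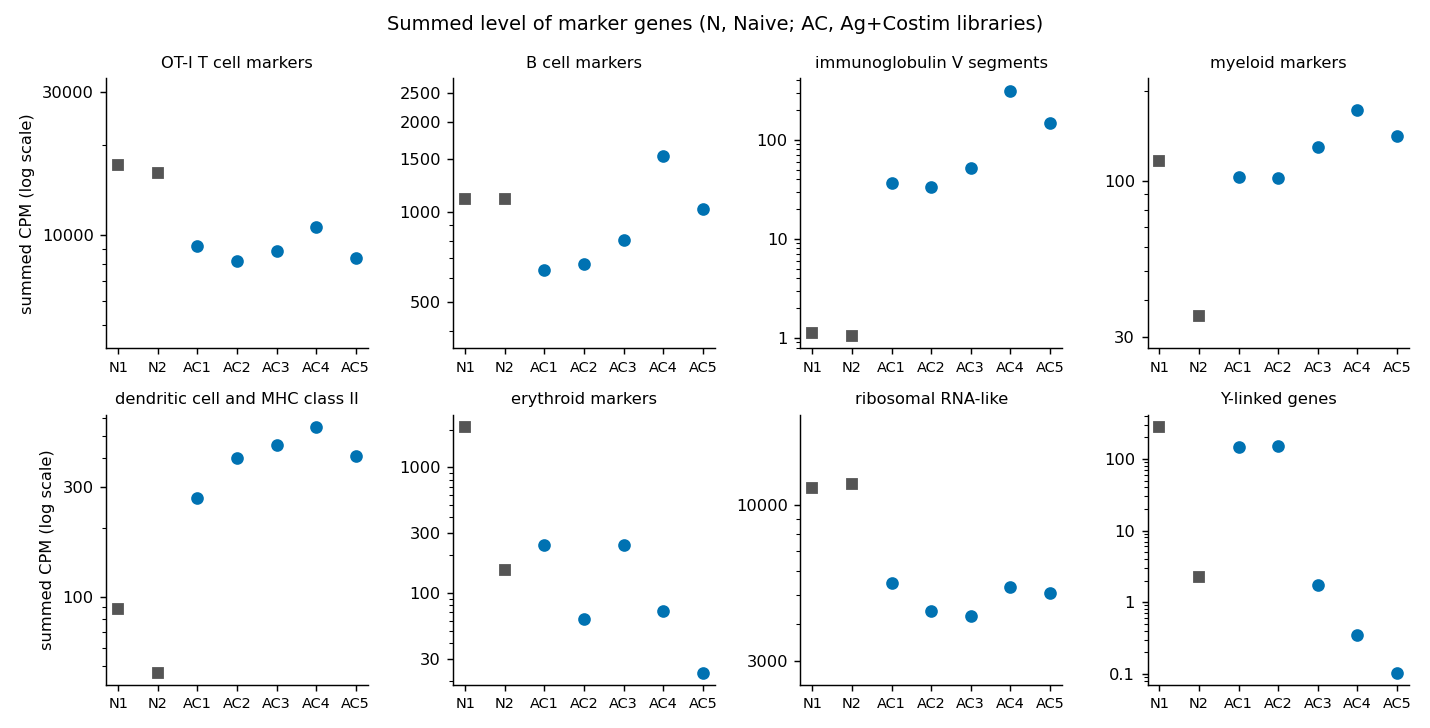
Summed CPM (vertical axis, log scale) of marker genes, 1 panel per list, in each library (horizontal axis; N, Naive; AC, Ag+Costim). OT-I marker and ribosomal RNA-like sums lie higher in both Naive libraries, immunoglobulin V segment and dendritic cell and MHC class II sums in all Ag+Costim libraries.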

How the data were processed

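RNA of OT-I CD8+ T cells was sequenced by the authors with SMART-Seq v4 and Nextera XT libraries and single-end reads of 100 bases. Per the submitters' processing notes, HISAT2 2.1.0, SAMtools 1.9 and StringTie 2.1.0 were used with the mouse build mm10, and DESeq2 1.30.1 for the authors' own tests. The deposited gene and transcript tables hold estimated counts per library, with no normalization, that are already whole numbers. The deposited FPKM values were scaled by the authors to library size and transcript length and served only for alternatives. A deposited library sheet gives the authors' read counts, percent aligned and percent complexity. Tables of the authors' own comparisons were not used.

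Genes with too few counts were removed with edgeR's filterByExpr, which left 18817 of 55536 annotated genes; 26345 unannotated entries were left out. All 12 libraries (5 Ag+Costim, 5 Ag, 2 Naive) entered 1 fit in R 4.3.3 with edgeR 4.0.16 (TMM scaling, robust glmQLFit, two-sided glmQLFTest, Benjamini-Hochberg adjustment over all 18817 genes, threshold 0.05), and glmTreat tested a log2 fold change of 1. Log2 CPM used a prior count of 2. Standard errors were derived from the fold change and its F statistic. The procedure was tested on simulated data. Alternatives were DESeq2 1.42.0, limma 3.58.1 on FPKM values with 1 or 0.1 added, other scalings and filters, a replicate term, a length correction, and leaving out each library; terms for Y-linked transcripts, and the alternatives for the contrast with Ag, were chosen after seeing the data.

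The members and the gene lists were chosen with earlier results of these data known. Named genes were fixed anchors, the 10 largest rises and falls among called protein-coding genes above 3 in mean log2 CPM whose groups do not overlap, and up to 3 members of each list with the largest changes. Rasgrp2, Foxo1, Bach2, Satb1, Itgae, Ccr9, Eomes, Fasl, Ctsl, Il2, Ctla4, Il2rb, Nr4a1, Ldhb, Slc16a3, Ezh1, Tet1, Tet3, Bcl2, Bcl2l1, Slc7a5, Cd8a, Cd3e and Ms4a1 were named in addition after their values were seen. Some genes are not reported here. The floor of 3 counts covers counting error only.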

Additional observations from a re-analysis of the deposited data

Results flagged for a closer look

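Within the 5 Ag+Costim libraries, 1 library stood far from the other 4 by Dixon's criterion (gap over range above 0.71) for 19 of 206 named genes (9.22%) and 4 of 52 gene lists (7.69%). For a single item of normal spread, chance flags about 1 in 20. The items share the same 5 libraries and are not independent, so no excess over that rate can be read from these shares. Ag+Costim 4 was that library in 20 of the 23 cases. It was the highest library for Il7r (104 CPM), Vipr1 (6.96 CPM), Pim2 (182 CPM) and Trdc (158 CPM). It was the lowest for Mcm5 (727 CPM), Ezh2 (196 CPM), Nek2 (147 CPM), Ttk (56.7 CPM), Tnfsf9 (7.84 CPM), Rrm2 (1190.4 CPM), Tpi1 (337 CPM), Gapdh (207 CPM), Ldha (2329 CPM), Hsp90aa1 (472 CPM), Lmnb1 (224 CPM), Psmd1 (289 CPM), Dusp14 (11.7 CPM) and Eomes (79.3 CPM). Its median log2 difference from Naive was also the lowest for gamma delta markers (-3.35) and splicing factor families (0.53).

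Ag+Costim 1 was the lowest library for Ighd (3.82 CPM). Ag+Costim 5 was the lowest for the median of costimulatory receptors and TRAF adaptors (-0.069), and Ag+Costim 2 for that of myeloid markers (0.18).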

How the results depend on the processing

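Over 27 alternatives, 176 of the 200 called named genes kept their call and direction and 24 lost the call in at least 1, and Prf1, which was not called, was the only named gene that changed sign (-0.087 with the replicate block, -0.092 and -0.095 on FPKM values with 1 and 0.1 added). The counts of genes higher and lower were 4417 and 5654 with upper-quartile scaling, 5398 and 4809 with DESeq2, and 3983 and 6709 on FPKM values with 1 added, where the median of all genes was -0.12. Leaving out 1 library gave 3720 to 5387 higher, 3364 to 5143 lower, 1301 to 2005 higher beyond 2-fold and 983 to 1757 lower beyond 2-fold; a lone Naive library is assumed to vary like the other groups. Within the libraries with Y-linked transcripts 2888 genes were lower and 944 beyond 2-fold, and within those lacking them 3010 and 888, in fits with fewer samples. Only 4 of 52 list medians stayed within 1 SD of the Ag+Costim libraries in every alternative. Within it stayed 10 on FPKM values with 1 added, 14 with 0.1 added, 33 under upper-quartile scaling and all 52 with DESeq2 on all libraries or RLE scaling, and 6 medians had the other sign on FPKM values. The median of BCL-2 family and cell death genes turned to -0.015 and -0.059 on FPKM values with 1 and 0.1 added and to -0.14 within libraries with Y-linked transcripts. That of DNA methylation and Polycomb enzymes turned to -0.29 and -0.31 on FPKM values, that of erythroid markers to 0.48 within libraries lacking Y-linked transcripts, and that of T cell receptor beta variable segments to -0.67 with a filter of 1 CPM. That of costimulatory receptors and TRAF adaptors was -0.036 with upper-quartile scaling and -0.11 on FPKM values, and that of MHC class I and peptide loading genes -0.043 on FPKM values. That of interferon-stimulated genes was -0.23 with the replicate block, -0.15 and -0.16 on FPKM values, -0.17 within libraries with Y-linked transcripts, -0.10 with the length correction, -0.049 with upper-quartile scaling and -0.05 without Ag+Costim 3. That of platelet markers was -2.59 within libraries with Y-linked transcripts, -1.14 without Ag+Costim 4 and -0.31 to -0.018 in 5 other alternatives. Medians near 0 of CD4 and regulatory T cell, JAK, STAT and SOCS and killer lectin-like receptor genes, and that of sex-linked genes, also took the other sign in 1 to 3 alternatives each. The cause was not tested. Correlations of same-numbered libraries were 0.144 and 0.0709 between Ag+Costim and Naive and 0.297, 0.148, 0.105, -0.045 and -0.017 between Ag and Ag+Costim, so not every pair deviated together and the numbers were not taken as pairing, although same-numbered treated libraries also matched in the presence of Y-linked transcripts. A term for Y-linked transcripts kept 97.4% of the calls, and the replicate block gave 4799 higher, 4279 lower, 1784 higher beyond 2-fold and 1444 lower beyond 2-fold. With only 2 Naive libraries, the spread within Naive is poorly known. The erythroid marker Hbb-bs was called lower although Naive 1 and 2 were at 535 and 37.5 CPM. Without Naive 1 its log2 fold change was -0.52, against -3.45 with both.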

Other observations

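Genes listed at 0 in both Naive libraries and above a mean of 10 CPM in Ag+Costim numbered 3. Dusp14, a dual-specificity phosphatase, was at 17.4 ± 3.31 CPM (SD, n = 5) in Ag+Costim, and Popdc2 at 17.6 ± 2.68 CPM. An entry for the myosin light chain Myl12b was at 92.1 CPM in Ag+Costim 1 and listed at 0 in the other 4 Ag+Costim libraries, while its mean in Ag was 494 CPM, so this estimate is unstable between libraries.

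Estimated counts per aligned read were 1.40 to 1.43 in Ag+Costim and 1.21 and 1.2 in Naive.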
